A study of Mus musculus with 24 samples.

Results

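Whole left lobes of 12 lungs from control mice, 6 at postnatal day 2 (P2) and 6 at P5, were compared to describe how gene expression in the developing lung changed between these ages. The 12 are the lungs titled as controls among the 24 lungs of the series, were chosen by that title and their age alone, and carry the genotype label WT with no strain, sex, litter or further allele given. The other 12 lungs came from Sox9Cre; Vangl2f/f and Sox9Cre; Ror2f/f mutants, in which Sox9-Cre deletes a planar cell polarity protein or a Wnt5a receptor, and each mutant group was deposited in 1 table with its own 3 controls. The controls thus form a Vangl2 set (titled as controls for Vangl1/2) and a Ror2 set, each with 3 lungs at P2 and 3 at P5. Because each age of each set is a separate table, a difference between tables cannot be told apart from the age difference within a set. Nor can it be told apart from a difference of the age change between sets.

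The mouse lung is born with wide saccules, and during the first postnatal days ridges called secondary septa grow out of the saccule walls and divide them into alveoli. Alveolar myofibroblasts, which carry the PDGF receptor alpha and respond to PDGF-A from the epithelium, lie at the septal tips and lay down elastic fibres, while the capillary bed, pericytes and flat type I epithelial cells spread with the new walls. Wnt5a is a secreted ligand of the Ror receptors, and Vangl proteins are core components of planar cell polarity, the system that orients cells and their cytoskeleton within a tissue.

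Between 16443508 and 21544225 reads fell on genes in 11 of the lungs. P5 lung 1 of the Ror2 set had 13820885, with 71.6% of the expressed genes of chromosome 5 and 100% of those of chromosomes 6 to 9, X and Y listed at 0. It was treated as missing for 8287 genes on these chromosomes or without a placed position, and such genes have 5 P5 lungs. On the first principal component, 29.9% of the variance, the P2 lungs lay between -43.4 and -5.19 and the P5 lungs between 1.66 and 37.4. P5 lungs 2 and 3 of the Vangl2 set stood apart on the second component, with *Rpl3* at 1683 and 1577 normalized counts. By *Xist* and *Ddx3y*, all 3 P5 lungs of the Vangl2 set read as female, against 1 of 3 in each P2 table and 1 of the 2 readable P5 lungs of the Ror2 set, so sex was not balanced over the ages. P5 lung 3 of the Vangl2 set held 375 normalized counts of *Adipoq*, a fat cell hormone. The lung identity of the samples was plain, with surfactant protein C, *Sftpc*, at 93392 normalized counts or more and the type I cell gene *Ager* at 23902 or more in all 12 lungs.

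Of 16200 genes tested, 3256 (20.1%) differed between the ages with the same direction in both sets, by limma with the set as a block and a Benjamini-Hochberg adjusted p under 0.05. The call covered 1694 genes higher at P5 (10.5%) and 1562 lower (9.64%). Values are normalized counts, the deposited reads per gene divided by a size factor and then put on 1 scale for the 12 lungs, and differences are P5 minus P2 on the log2(normalized count + 1) scale. In each set all 3 P5 lungs lay above all 3 P2 lungs for 1217 genes (7.51%) and below them for 904 (5.58%). Genes that were called, separated in this way and changed by at least 1 on the log2 scale numbered 347 (2.14%), 73 higher (0.451%) and 274 lower (1.69%). Without the joint scale the split of calls was 857 higher and 2344 lower, since the median difference of all genes was then -0.11 in place of -0.02. Leaving out P5 lung 2 of the Ror2 set left 2136 calls. Separated genes with a change of at least 1 numbered 611 in place of 347 without P5 lung 3 of the Vangl2 set and 635 without lungs 2 and 3. Calls numbered 714 with the table as a random block and 0 with the 4 table means as samples (2905 at an unadjusted limma p under 0.05). They numbered 820 with the Y-linked level as a covariate, here and below a fit of 11 lungs without P5 lung 1 of the Ror2 set. Leaving out that lung alone left 2968 calls. Sex was not balanced over the ages, so the covariate overlapped with age and this fit cannot fully separate sex from age.

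**Figure D1:**
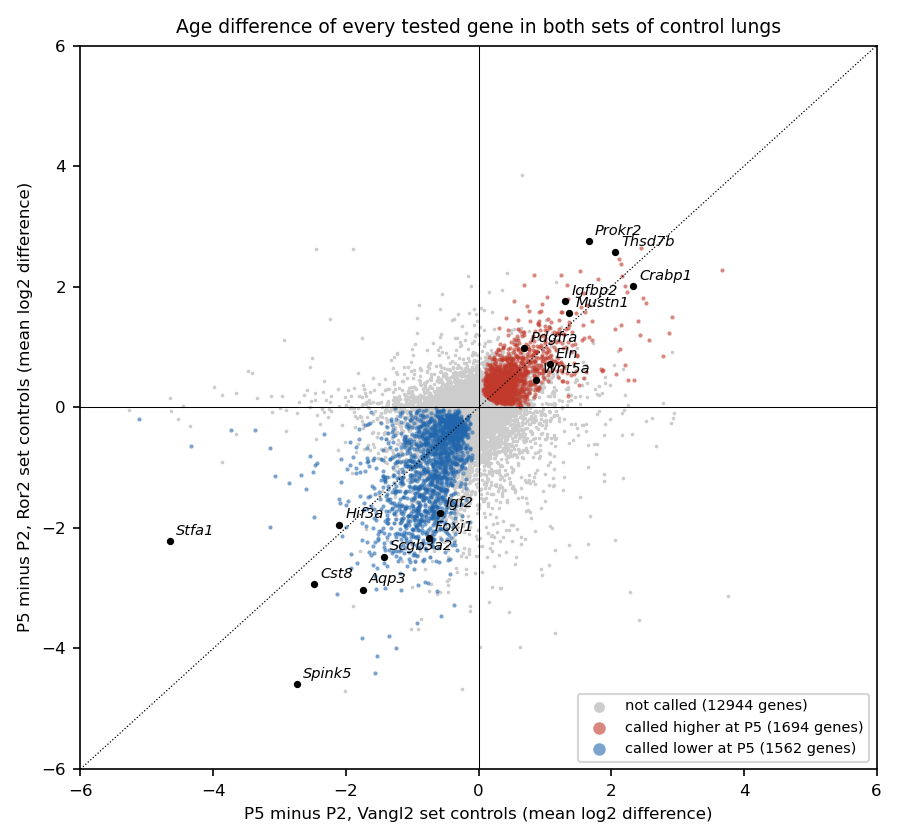
Mean log2 difference, P5 minus P2, of every tested gene in the Vangl2 set (horizontal axis) against the Ror2 set (vertical axis), 1 point a gene, red for genes called higher and blue for genes called lower. Called genes lie in the upper right and lower left by construction, labelled genes are named in the text, and 9 genes lie beyond the axis limit of 6.

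The age difference itself departed between the sets, as the interaction of age and set, for 1 gene (0.00617% of 16200), *Igf2*, a growth factor of fetal tissue, while 2345 genes had an unadjusted p under 0.05. *Igf2* had normalized counts of 5953, 6798 and 7320.2 at P2 and 1935, 3936 and 4375 at P5 in the 5 measured lungs (lowest, median and highest, the order used below). Every P5 lung was below every P2 lung, and the difference was -0.59 in the Vangl2 set and -1.76 in the Ror2 set. The interaction was -1.17 (Ror2 minus Vangl2 set, limma adjusted p = 0.039). Without P5 lung 1 of the Vangl2 set 1046 genes passed that test and without P5 lung 2 of the Ror2 set 2. The count was 0 without P2 lungs 1, 2 or 3 or P5 lung 3 of the Ror2 set or without P2 lungs 2 or 3 or P5 lungs 2 or 3 of the Vangl2 set. In the Vangl2 set alone 382 of 15727 genes (2.43%) passed and in the Ror2 set alone 1635 of 15697 (10.4%).

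Among the 9 genes of the studied pathway, the ligand *Wnt5a* rose, with normalized counts of 1686, 2125 and 2534 at P2 and 2931, 3195 and 4524 at P5. Its P5 lungs were all above its P2 lungs (two-sided exact permutation test within sets, p = 0.005, the smallest this design allows, among 9 genes tested in this way), and it was called across all genes (log2 difference 0.66 ± 0.12 (SE), adjusted p = 0.00345). *Ror1*, a receptor of the same family as *Ror2*, rose from 405 to 567 at the median (0.54, exact p = 0.005), with no overlap between the ages. *Ror2* had normalized counts of 452, 508 and 581 at P2 and 383, 525 and 619 at P5, and the P5 lungs spanned the whole P2 range (log2 difference 0.04 ± 0.12 (SE), adjusted p = 0.823). In bulk tissue such a value reflects both how many cells express a gene and how much RNA each holds, and fewer cells of a type and less RNA per cell cannot be told apart.

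*Vangl2* had normalized counts of 235, 267 and 291 at P2 and 297, 319 and 373 at P5, a difference of 0.30 with no overlap of the ages (exact p = 0.005, limma adjusted p = 0.0312). Its limma call was lost in 7 of the 12 fits without 1 lung, with adjusted p = 0.0608 without P2 lung 3, 0.0576 without P5 lung 1 and 0.0704 without P5 lung 2 of the Ror2 set. In the Vangl2 set it was 0.0699 and 0.0534 without P2 lungs 1 and 3 and 0.0525 and 0.0645 without P5 lungs 1 and 2. *Vangl1*, its paralogue, had medians of 978 and 951. No difference was detectable over its spread (log2 difference 0.09 ± 0.21 (SE), adjusted p = 0.793).

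The PDGF pair moved in opposite directions. The ligand *Pdgfa* fell, with normalized counts of 1029, 1334 and 1934 at P2 and 857, 990.5 and 1104 at P5 in the 5 measured lungs (-0.53, exact p = 0.01), and 1 P5 lung reached the lower end of the P2 range. Its receptor *Pdgfra* rose, with 2241, 2676 and 3254 at P2 and 3729, 4970.3 and 5450.1 at P5 in the 5 measured lungs (0.82, exact p = 0.005), every P5 lung lying above every P2 lung. *Eln*, the elastin gene, had normalized counts of 51299, 58367 and 90449 at P2 and 86836, 124113 and 139281 at P5 in the 5 measured lungs and rose by 0.91 ± 0.17 (exact p = 0.01), with the lowest P5 lung just below the highest P2 lung. *Acta2*, smooth muscle actin, ranged over 11866, 13973 and 17475 at P2 and 8469, 16575 and 19264 at P5, and its ages overlapped (log2 difference 0.09 ± 0.18 (SE), adjusted p = 0.766, exact p = 0.695).

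**Figure D2:**
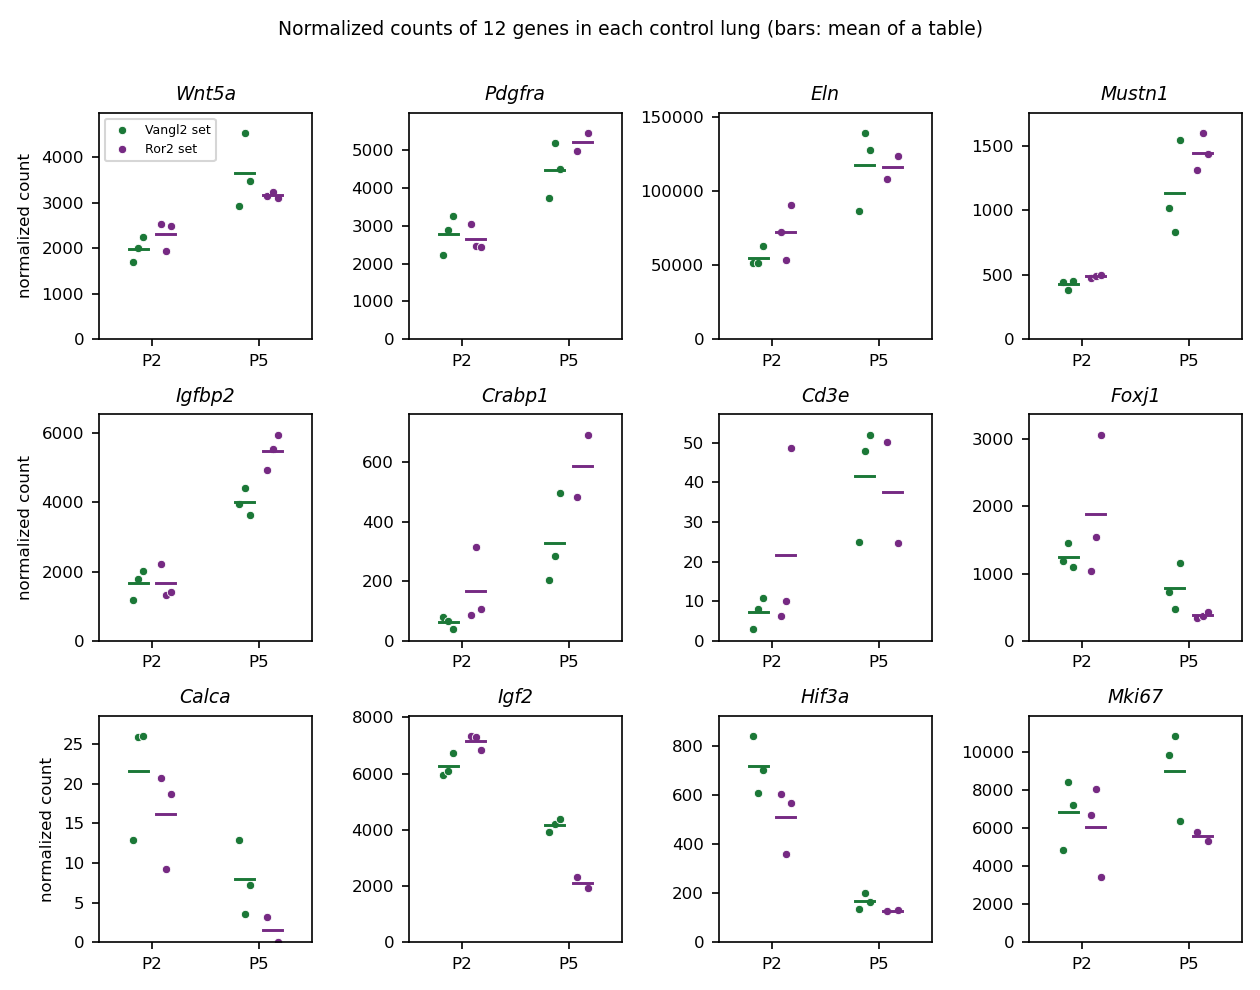
Normalized counts (vertical axes, each from 0) of 12 genes in each control lung at P2 and P5, green for the Vangl2 set and purple for the Ror2 set, with bars for the mean of a table. P5 points of *Wnt5a*, *Pdgfra*, *Mustn1* and *Igfbp2* lie above all P2 points, those of *Igf2* and *Hif3a* below them, and those of *Mki67* overlap.

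Myofibroblast and smooth muscle genes were the list with the largest share of members that rose, 17 of 28, where 10.5% of all genes did, and 0 fell. The median log2 difference was 0.45 (0.44 in the Vangl2 set and 0.39 in the Ror2 set). The median level of the list, relative to each gene's mean, lay from -0.30 up to -0.20 in P2 lungs but 0.17 to 0.30 in P5 lungs, so the lungs of the ages did not overlap. With the Y-linked level as a covariate limma called 7 members higher (16 at an unadjusted p under 0.05), and in each set alone 10. *Mustn1*, a small nuclear protein of muscle and skeletal tissue, had normalized counts of 383, 465 and 501 at P2 and 834, 1374 and 1598 at P5 and the largest difference of the list (log2 difference 1.46 ± 0.12 (SE), adjusted p = 7.02e-05). *Lgr6*, an R-spondin receptor expressed in airway smooth muscle, stood at 191, 216 and 245 at P2 and 371, 396 and 503 at P5 (log2 difference 0.95, adjusted p = 0.000183). *Stc1*, a secreted glycoprotein, and *Fgf18*, a growth factor made by alveolar myofibroblasts, rose by 0.86 and 0.71. *Myh11*, smooth muscle myosin heavy chain, rose by 0.44 (adjusted p = 0.00217), with 1 P5 lung inside the P2 range.

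Of the elastic fibre genes 9 of 22 rose and 0 fell, beside 10.5% and 9.64% of all genes. Limma with the Y-linked level as a covariate called 6 higher. *Ltbp2*, a microfibril-associated protein, had normalized counts of 5460.4, 7039 and 10003 at P2 and 11660.4, 14278 and 16309 at P5 (log2 difference 0.93 ± 0.13 (SE), adjusted p = 0.000762). *Mfap4*, which binds elastin and collagen at the fibre, was among the most abundant of these genes and moved from a median of 64578 to 100262 with no overlap (log2 difference 0.67, adjusted p = 0.000539). *Mfap2*, a microfibril glycoprotein, and *Loxl1*, the enzyme that cross-links elastin, rose by 0.52 and 0.51 (5 P5 lungs for the latter). *Fbln5*, needed for elastic fibre assembly, was not called (log2 difference 0.15 ± 0.08 (SE), adjusted p = 0.204).

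With a median of 0.17, the collagen list held 9 genes that rose and 1 that fell of 28, beside 10.5% and 9.64% of all genes. Limma with the Y-linked level as a covariate called 3 higher (9 at an unadjusted p under 0.05), and in the Vangl2 and Ror2 sets alone 1 and 4. *Col24a1*, a minor fibrillar chain, rose by 0.66 and *Col15a1*, a basement membrane zone chain, from a median of 1561 to 2246 (log2 difference 0.50, adjusted p = 0.000284). Of the major fibrillar chains *Col3a1* rose by 0.41 (adjusted p = 0.0129), while *Col1a1* had normalized counts of 23412, 29527 and 33429.6 at P2 and 25620.0, 32905 and 44325 at P5 and was not called (log2 difference 0.23, adjusted p = 0.115). The fall was that of *Col8a2*, a short-chain collagen, at 135, 139.9 and 166 at P2 and 86.9, 93.9 and 118 at P5 (log2 difference -0.58, adjusted p = 0.00428), with no overlap.

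Matrix fibroblast and lipofibroblast genes rose in 10 of 31 cases and fell in 1, while 4 fell without P5 lung 3 of the Vangl2 set and 3 without both P5 lungs of that set that stood apart. In the other fits without 1 lung the fall was called only without P2 lung 1 of either set. Limma with the Y-linked level as a covariate called 5 of the list higher and 0 lower. Of all genes the main fit called 10.5% higher and 9.64% lower. *Npnt*, nephronectin, an integrin ligand of the basement membrane, gave normalized counts of 11766, 12184 and 13829 at P2 and 19263, 24474 and 28746 at P5, every P5 lung above every P2 lung (log2 difference 0.93 ± 0.10 (SE), adjusted p = 0.000228). *Ogn* and *Dpt*, small matrix proteins, rose by 0.60 and 0.54, and *Fgf10*, the growth factor of distal lung mesenchyme, by 0.50. Without both P5 lungs of the Vangl2 set that stood apart *Fgf10* was at 0.36 and not called (adjusted p = 0.0502). The lipid droplet gene *Plin2* was not called (log2 difference -0.27, adjusted p = 0.0818). Among matrix metalloproteinases and their inhibitors 9 of 22 rose and 1 fell. *Adamts17*, a secreted metalloproteinase, stood at 2819.7, 3156 and 3546 at P2 and 4751, 5337 and 5723 at P5 in the 5 measured lungs (log2 difference 0.76 ± 0.07 (SE), adjusted p = 0.000104) and *Mmp2*, gelatinase A, rose by 0.60 over 5 P5 lungs. The inhibitor *Timp1* fell by 0.63 (5 P5 lungs, adjusted p = 0.00801).

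The largest increases outside these lists belonged to genes of several kinds. *Thsd7b*, a thrombospondin-repeat protein, had normalized counts of 16.8, 26.1 and 55.2 at P2 and 113, 151 and 234 at P5, so the lowest P5 lung held more than the highest P2 lung (log2 difference 2.31 ± 0.28 (SE), adjusted p = 0.000445). *Prokr2*, a prokineticin receptor, had 63.6, 89.8 and 238 at P2 and 190.2, 461 and 1275 at P5. The P2 and P5 ranges of *Prokr2* overlapped between sets but not within them (log2 difference 2.21, adjusted p = 0.000773). *Crabp1*, which binds retinoic acid in the cytoplasm, rose by 2.19 from a median of 83.6 to 482 over 5 P5 lungs. It belongs to the 19 genes of retinoid metabolism, of which 2 rose and 2 fell, near the 10.5% and 9.64% of all genes, and 1 to 3 rose with 1 lung left out.

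*Igfbp2*, an insulin-like growth factor binding protein that marks mature type I cells, was the most abundant of the genes with the largest increases, with normalized counts of 1169.7, 1602 and 2223 at P2 and 3644, 4675 and 5943 at P5 (log2 difference 1.53 ± 0.16 (SE), adjusted p = 0.000184). The Wnt ligand *Wnt10b* rose by 1.74, *Dab1*, an adaptor of reelin signalling, by 1.96, and *Slitrk6*, a neuronal transmembrane protein also made in lung epithelium, by 1.52. Others of this group were *9330159F19Rik* (2.17), *Sez6l* (1.60, 5 P5 lungs), *Egfem1* (1.41) and the neuropeptide Y receptor *Npy1r* (1.37, 5 P5 lungs), given with their log2 differences. Among the increases with the lowest adjusted p-values, beside *Mustn1*, were *Amph*, amphiphysin, a membrane-curving protein of endocytosis (log2 difference 0.89 ± 0.06 (SE), adjusted p = 4.77e-05), *Cd248*, endosialin, a stromal surface protein (log2 difference 1.23, adjusted p = 7.02e-05), and *Fam129a* (log2 difference 1.07, adjusted p = 7.02e-05). *Amph* had normalized counts of 430.3, 506 and 549 at P2 and 801, 917 and 1115 at P5, and neither *Amph*, *Cd248* nor *Fam129a* had a P5 lung within the P2 range.

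Vascular genes rose in part, where of all genes 10.5% rose and 9.64% fell. In the endothelial list 12 of 35 rose and 3 fell, with a median of 0.25, and 7 rose in the fits without P2 lung 2, P5 lung 2 or P5 lung 3 of the Ror2 set or P2 lung 2 of the Vangl2 set. Limma with the Y-linked level as a covariate called 5 higher (17 at an unadjusted p under 0.05), and in the Vangl2 and Ror2 sets alone 1 and 7. *Aplnr*, the apelin receptor of general capillary cells, had normalized counts of 4269, 4683 and 5043 at P2 and 6330.5, 7103 and 9515 at P5 (log2 difference 0.67 ± 0.10 (SE), adjusted p = 0.00125). The pan-endothelial adhesion molecule *Pecam1* rose by 0.32 (adjusted p = 0.0103), 4 of the 6 P5 lungs lying above the P2 range. *Ednrb*, the endothelin receptor that marks aerocyte capillaries, fell by 0.53, with 3496, 4230.4 and 4618 at P2 and 2395, 2923 and 3125 at P5 and no overlap. *Car4*, another gene of the same capillary cells, was not called (log2 difference -0.20, adjusted p = 0.158). *Prox1*, the regulator of lymphatic identity, fell by 0.86 (adjusted p = 0.0161).

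Pericyte genes rose in 6 of 13 cases and fell in 1, beside 10.5% and 9.64% of all genes. *Pdgfrb*, the receptor that holds pericytes to endothelium, had normalized counts of 5581, 5838 and 6461 at P2 and 8174, 8934 and 9352 at P5, the ages far apart for their spread (log2 difference 0.58 ± 0.06 (SE), adjusted p = 0.000123). *Rgs5*, a regulator of G-protein signalling in pericytes, rose by 0.84 and *Gucy1b3*, a subunit of the nitric oxide receptor, by 0.50. *Cspg4*, the NG2 proteoglycan, was not called (log2 difference 0.13, adjusted p = 0.321, 5 P5 lungs). The vessel-remodelling ligand *Angpt2* stood at 265, 349.7 and 386 at P2 and 532, 692 and 748 at P5 in the 5 measured lungs and rose by 0.90 (adjusted p = 0.000998).

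The signalling lists held more genes that rose than fell, where of all genes 10.5% rose and 9.64% fell. Of the Wnt and planar cell polarity genes 17 of 51 rose and 6 fell. The non-canonical ligand *Wnt11* rose by 0.93 (5 P5 lungs) and the secreted Wnt inhibitor *Wif1* by 0.97. *Sfrp1*, another secreted inhibitor, fell from 401 to 168 at the median (log2 difference -1.14 ± 0.24 (SE), adjusted p = 0.00825, 5 P5 lungs). In the PDGF, FGF, Hedgehog and VEGF list 14 of 38 rose and 3 fell, and 9 rose without both P5 lungs of the Vangl2 set that stood apart. *Spry4*, an inhibitor induced by FGF signalling, rose by 0.80 (adjusted p = 0.00945). In the TGF-beta and BMP list 12 of 38 rose and 1 fell. The Wnt, PDGF and TGF-beta lists had 8, 7 and 5 members called higher with the Y-linked level as a covariate. *Tgfb3* had normalized counts of 1524, 1757 and 2179 at P2 and 2652, 2896 and 3183 at P5 with no overlap (log2 difference 0.69 ± 0.08 (SE), adjusted p = 0.000284). *Bmp5* rose by 0.79 (5 P5 lungs), and the BMP antagonist *Grem1* rose by 2.08 from a median of 8.05 to 37.3, near the lowest levels tested. *Grem1* was not called without both P5 lungs of the Vangl2 set that stood apart (1.89, adjusted p = 0.0604).

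**Figure D3:**
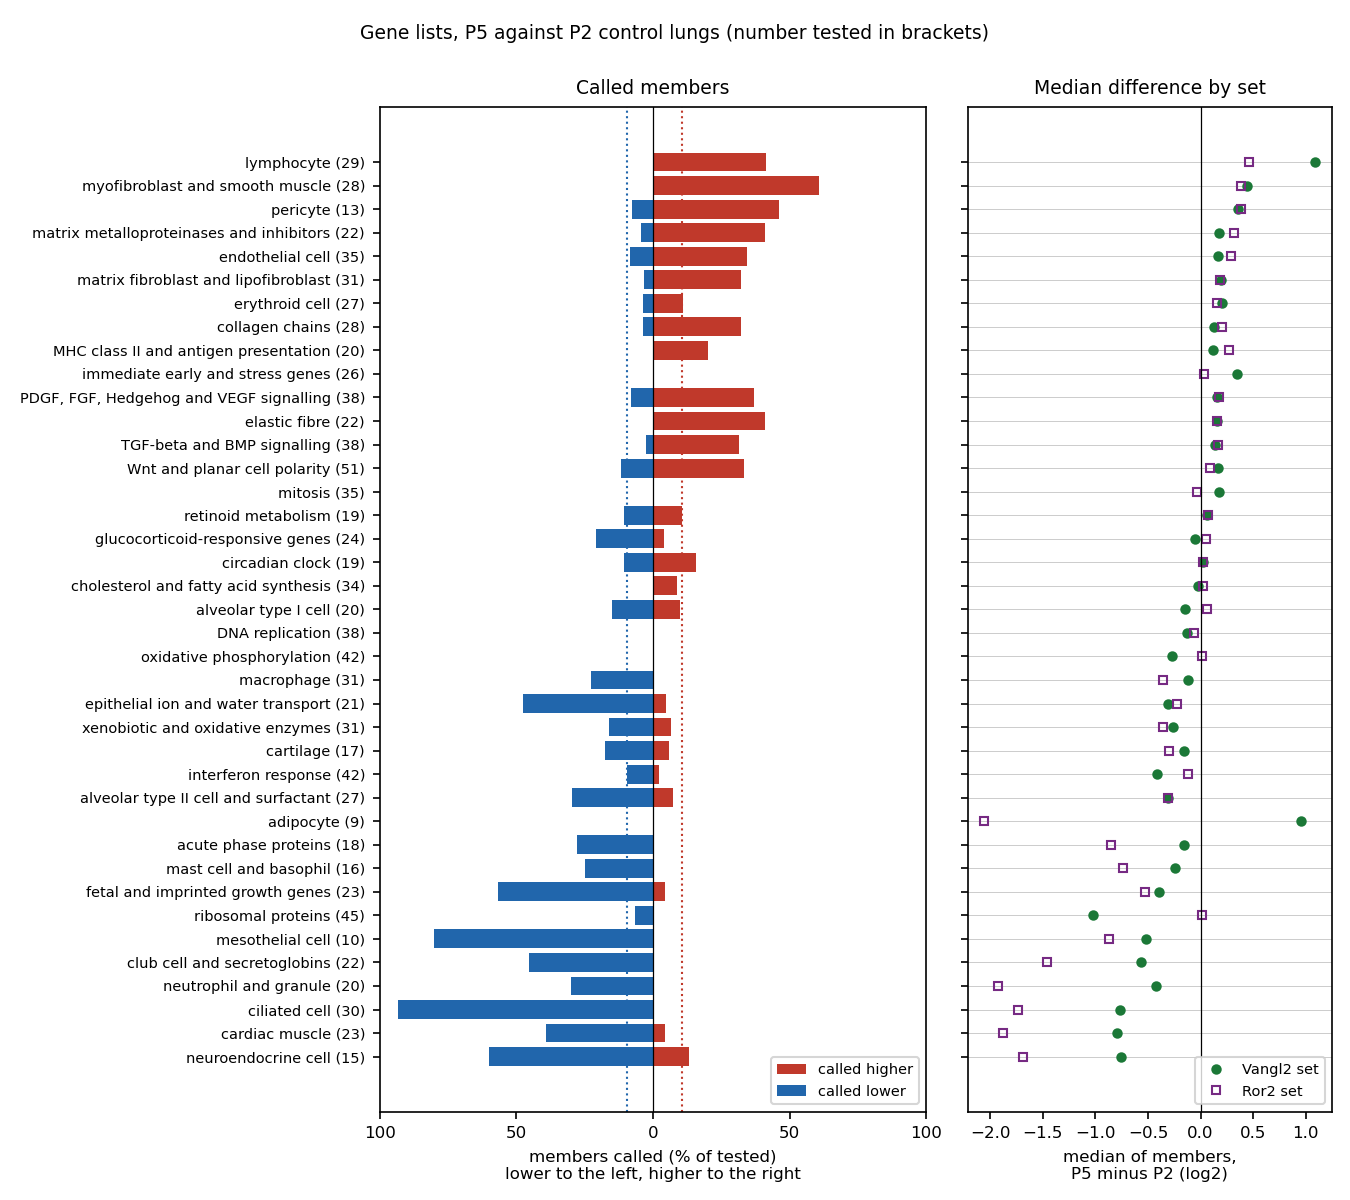
Gene lists ordered by median log2 difference, P5 against P2 controls: the left panel gives the percentage of tested members called higher (red, to the right) or lower (blue, to the left), with dotted lines at 10.5% and 9.64%, the shares of all genes, and the right panel the median difference of members in each set. Ciliated, mesothelial and neuroendocrine lists extend farthest to the left and the myofibroblast list farthest to the right.

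Airway epithelial genes were lower at P5. Of 30 ciliated cell genes 28 fell, where 9.64% of all genes did, and 0 rose, with a median difference of -1.25 (-0.77 in the Vangl2 set and -1.74 in the Ror2 set). The list's level lay from 0.27 up to 1.28 in P2 lungs but -1.16 to 0.25 in P5 lungs, with P5 lung 3 of the Vangl2 set close to the P2 lungs. In 8 genes the P5 lungs lay below the P2 lungs within both sets, beside 5.58% of all genes. In the Ror2 set alone 26 of the 30 passed, but in the Vangl2 set alone limma called 0, with 18 lower at an unadjusted p under 0.05, where 10.4% and 2.43% of all genes passed. With the Y-linked level as a covariate 9 passed. *Foxj1*, the transcription factor that switches on the motile cilium program, had normalized counts of 1039, 1316 and 3064 at P2 and 346, 448 and 1157 at P5, with 1 P5 lung inside the P2 range (log2 difference -1.46 ± 0.31 (SE), adjusted p = 0.0077). *Ccdc78*, which acts in centriole amplification, was lower in every P5 lung, at 115, 176 and 279 at P2 and 31.4, 48.9 and 99.7 at P5 (log2 difference -1.64, adjusted p = 0.00271). The axonemal genes *Dnahc5* (-1.56), *Tekt4* (-1.54), *Wdr52* (-1.58), which RefSeq calls *Cfap44*, *Hydin* (-1.31, 5 P5 lungs) and *Dynlrb2* (-1.20, 5 P5 lungs) fell, their log2 differences in brackets. *Dynlrb2* was not called without P5 lung 2 of the Ror2 set (-1.10, adjusted p = 0.0504).

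RefSeq (GRCm38.p6) gave a promoter window, 250 bases before to 50 after the start, for 24 of the 28 ciliated cell genes that fell and for 27025 genes in all. The X-box, the motif read by RFX factors of cilium genes and searched here by name on both strands after the values had been seen, was found in 6 of the 24 (25.0%), against 1.75% of all windows. The partial site GTTGCC, which can lie inside an X-box, was in 14 (58.3%) against 14.1%. Of motifs listed earlier, TTTGAA was in 12.5% against 20.2%, CCAAT in 33.3% against 41.1%, TTTCGCGC in 0 against 0.374% and the interferon-stimulated response element, by name, in 4.17% against 3.99%. The CArG box of smooth muscle genes was in 0 of the 12 called myofibroblast genes with a window, against 1.81%. A match says only that the letters are present. The windows of the 3 called ciliated genes with an X-box and the largest decreases follow, 5′ to 3′ with the X-box in capitals, *Cfap44* at chr16:44394549-44394848, *Hydin* at chr8:110266727-110267026 and *Dynlrb2* at chr8:116504765-116505064, all on the plus strand.
Cfap44: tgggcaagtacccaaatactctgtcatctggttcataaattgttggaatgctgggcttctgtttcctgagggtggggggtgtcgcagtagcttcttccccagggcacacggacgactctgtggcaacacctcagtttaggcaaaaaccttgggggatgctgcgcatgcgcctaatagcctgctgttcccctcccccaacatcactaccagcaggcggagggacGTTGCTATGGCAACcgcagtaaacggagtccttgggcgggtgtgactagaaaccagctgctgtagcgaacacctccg
Hydin: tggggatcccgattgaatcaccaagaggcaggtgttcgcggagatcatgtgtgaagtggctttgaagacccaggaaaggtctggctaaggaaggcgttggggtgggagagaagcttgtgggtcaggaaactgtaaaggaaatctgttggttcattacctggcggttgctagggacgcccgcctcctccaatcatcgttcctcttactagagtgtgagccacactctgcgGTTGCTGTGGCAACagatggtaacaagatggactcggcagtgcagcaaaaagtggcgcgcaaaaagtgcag
Dynlrb2: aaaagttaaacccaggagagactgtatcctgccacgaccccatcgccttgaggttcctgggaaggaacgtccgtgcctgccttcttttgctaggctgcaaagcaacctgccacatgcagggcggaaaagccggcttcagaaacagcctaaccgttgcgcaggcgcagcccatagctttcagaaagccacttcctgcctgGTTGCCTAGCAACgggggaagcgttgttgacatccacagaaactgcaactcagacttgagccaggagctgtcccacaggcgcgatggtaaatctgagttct

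Club cell and secretoglobin genes fell in 10 of 22 cases and rose in 0, beside 9.64% and 10.5% of all genes. Their medians were -0.57 in the Vangl2 set and -1.46 in the Ror2 set. *Scgb3a2*, a secretoglobin of the airways, ranged widely, with normalized counts of 7587, 26981 and 36640.4 at P2 and 2595, 5061 and 16479 at P5, and its ages overlapped (log2 difference -1.95 ± 0.41 (SE), adjusted p = 0.00718). *Cyp2f2*, a cytochrome P450 of club cells, was lower in every P5 lung, at 12276, 15272 and 17909 at P2 and 7061, 7347 and 10969.5 at P5 in the 5 measured lungs (log2 difference -0.90, adjusted p = 0.00125). *Scgb1a1*, the defining club cell secretoglobin, was not called (log2 difference -0.47 ± 0.18 (SE), adjusted p = 0.0763). Neuroendocrine genes fell in 9 of 15 cases and rose in 2, at low levels. *Calca*, which encodes calcitonin gene-related peptide, stood at 9.19, 19.7 and 26.0 at P2 and 0, 3.59 and 12.9 at P5 in the 5 measured lungs. Its difference was -2.12 ± 0.49, and *Resp18*, a secretory granule protein, was at -1.73. The count of neuroendocrine genes that fell was 5 without P2 lungs 2 or 3 or any 1 of the P5 lungs of the Ror2 set or P2 lung 2 of the Vangl2 set.

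Genes of the outer lining and of neighbouring tissues were also lower. In the Vangl2 set alone limma called 0 club cell, 0 neuroendocrine, 0 mesothelial and 0 cardiac genes lower (7, 4, 3 and 5 at an unadjusted p under 0.05), and in the Ror2 set alone 9, 6, 9 and 3. With the Y-linked level as a covariate it called 4, 3, 2 and 2 of them lower (11, 10, 8 and 18 at an unadjusted p under 0.05). Mesothelial genes fell in 8 of 10 cases (median -0.75), where 9.64% of all genes did. *Msln*, mesothelin, had normalized counts of 2168, 2646 and 3462 at P2 and 1362, 1599.5 and 2270.1 at P5 (log2 difference -0.69 ± 0.12 (SE), adjusted p = 0.00313), 1 P5 lung being inside the P2 range. Also lower were *Wt1* (-0.80), *Rspo1* (-0.92) and *Aldh1a2* (-0.86, 5 P5 lungs), respectively a transcription factor, a Wnt agonist and a retinoic acid synthesis enzyme of this layer. Of 23 cardiac muscle genes 9 fell and 1 rose, and their level lay from -0.55 up to 1.93 in P2 lungs but -1.87 to 0.33 in P5 lungs. *Mybpc3*, a sarcomere protein, fell by 1.86 (adjusted p = 0.0252). The call was lost without P2 lungs 2 or 3 of the Ror2 set (adjusted p = 0.0573 and 0.0538) or P2 lung 1 or P5 lung 2 of the Vangl2 set (0.0561 and 0.0547). *Myh6*, the atrial myosin, was not called, with 938, 2529 and 5928 at P2 and 221, 1003 and 1969.9 at P5 (log2 difference -1.42, adjusted p = 0.0911). Without 1 lung the cardiac count that fell was 2 without P2 lung 2 or P5 lung 2, 3 without P2 lung 3 and 5 without P5 lung 3 of the Ror2 set. It was 3 and 5 without P2 lungs 1 and 2 and 5, 4 and 15 without P5 lungs 1, 2 and 3 of the Vangl2 set.

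P2 lungs 2 and 3 of the Ror2 set held the 2 highest levels of ciliated, club cell and cardiac genes, while P5 lung 2 of the Ror2 set was lowest or next to lowest in all of these lists. Ciliated levels were 0.86 and 1.28 and cardiac levels 1.93 and 1.60 in the former 2 lungs, on the log2 scale around each gene's mean. Adipocyte genes, a list added after the values had been seen, had levels spanning -1.81 to 2.37 in P2 lungs and -1.83 to 5.31 in P5 lungs, the last in P5 lung 3 of the Vangl2 set. Of these genes 0 of 9 were called by limma and 0 had an unadjusted limma p under 0.05. EdgeR called 0 of the at most 6 it could test. The part of large airway, pleura, heart and fat carried with each lobe in these differences was not tested. In the cartilage list 3 of 17 fell and 1 rose, beside 9.64% and 10.5% of all genes. The collagen II gene *Col2a1* was not called (log2 difference 0.58, adjusted p = 0.122). Leaving out 1 lung gave 0 falls of cartilage genes without P2 lung 2, P5 lung 2 or P5 lung 3 of the Ror2 set or P2 lung 2 of the Vangl2 set, 1 without P2 lung 3 of either set or P5 lung 2 of the Vangl2 set. It gave 5 without P5 lung 1 of the Vangl2 set.

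**Figure D4:**
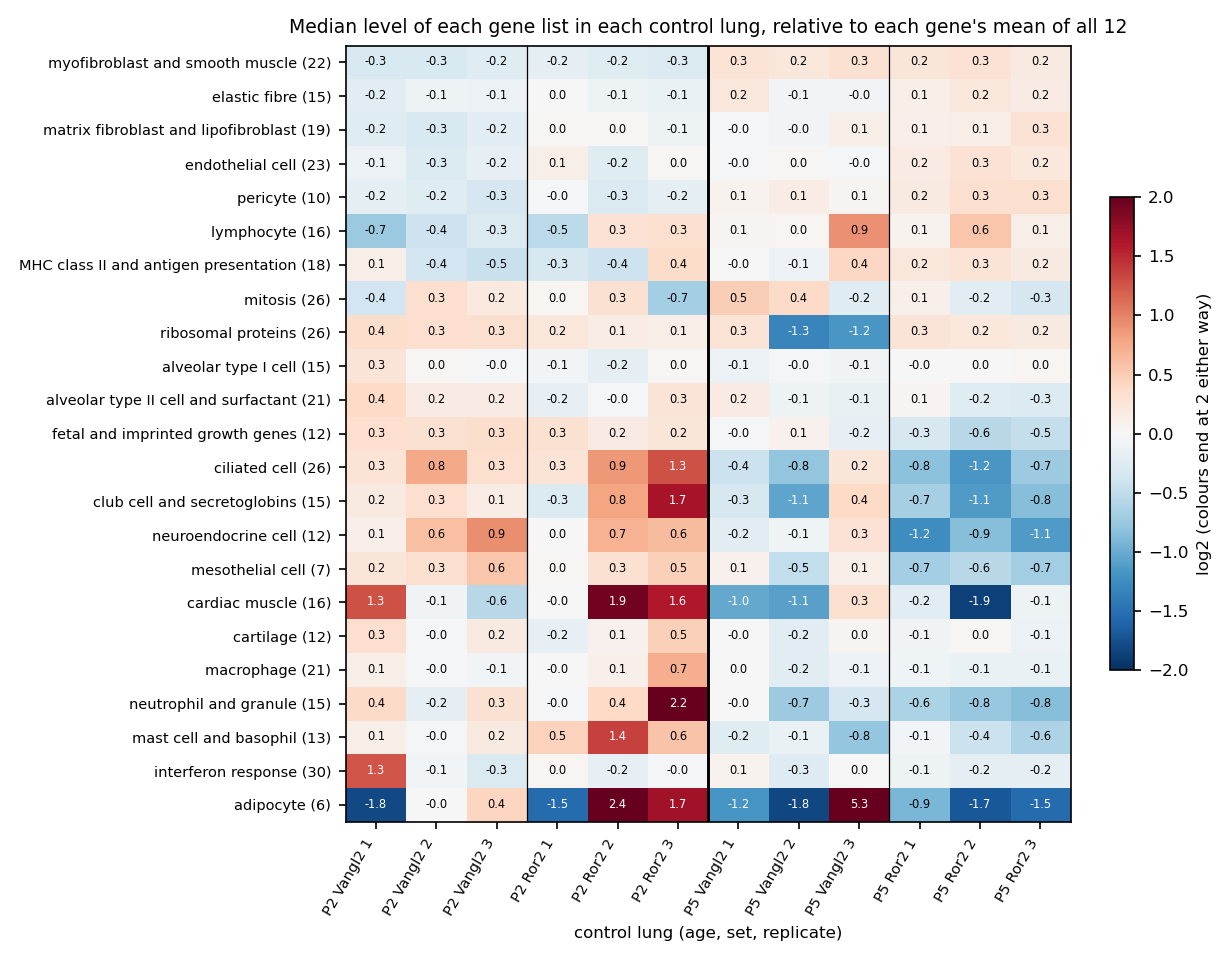
Median level of gene lists (vertical, genes measured in all 12 lungs in brackets) in each control lung (horizontal, by age, set and replicate), as log2 relative to each gene's mean over the 12 lungs, blue below and red above. The myofibroblast list is below 0 in the 6 P2 lungs and above 0 in the 6 P5 lungs, whereas cardiac and adipocyte lists vary most among lungs of 1 age.

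In the epithelium of the gas exchange region, of 20 type I cell genes 2 rose and 3 fell, beside 10.5% and 9.64% of all genes. *Ager*, which marks type I cells, had normalized counts of 26269, 27748 and 34154 at P2 and 23902, 28292 and 30253 at P5 with overlapping ages (log2 difference -0.06 ± 0.08 (SE), adjusted p = 0.644). *Spock2*, a matrix proteoglycan of type I cells, rose by 0.49, while *Vegfa*, the ligand these cells offer to capillaries, fell by 0.33 and *Sec14l3*, a lipid-binding protein, by 0.48. Of 27 type II cell and surfactant genes 8 fell and 2 rose, or 4 and 0 with the Y-linked level as a covariate. The surfactant genes *Sftpc* (log2 difference -0.36 ± 0.19 (SE), adjusted p = 0.208) and *Sftpb* (log2 difference -0.25 ± 0.10 (SE), adjusted p = 0.0897) were not called.

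*Hc*, complement C5 made by type II cells, fell by 0.84 with normalized counts of 6128, 8645 and 10914 at P2 and 3087, 5399.8 and 6923 at P5, and *S100g*, a calcium-binding protein of mature type II cells, by 0.97 (5 P5 lungs). *Abca3*, the lipid transporter of lamellar bodies, fell by 0.31 and was not called without both P5 lungs of the Vangl2 set that stood apart (-0.26, adjusted p = 0.0606). *Cd74*, the MHC class II chaperone also made by type II cells, rose by 0.95. Ion and water transport genes of the epithelium, which drive the clearance of lung liquid around birth, fell in 10 of 21 cases and rose in 1. The shares of all genes were 9.64% and 10.5%. Limma with the Y-linked level as a covariate called 3 of the transport genes lower. *Aqp3*, a water and glycerol channel of airway basal cells, had one of the largest falls at these ages, with 65.1, 99.7 and 116 at P2 and 7.33, 17.2 and 47.1 at P5 (log2 difference -2.39 ± 0.28 (SE), adjusted p = 0.000379). No P5 lung reached the lowest P2 lung. *Scnn1a*, the alpha subunit of the epithelial sodium channel, stood at 3636, 4795 and 6548 at P2 and 2864, 3050.2 and 3724 at P5 in the 5 measured lungs (log2 difference -0.67, adjusted p = 0.00517).

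Genes of fetal growth, many of them imprinted, fell in 13 of 23 cases and rose in 1 (median -0.52), beside 9.64% and 10.5% of all genes. *Meg3*, a non-coding RNA of an imprinted cluster, had normalized counts of 3506, 4069.8 and 4448 at P2 and 961, 1740.3 and 3283 at P5, all P5 lungs below all P2 lungs (log2 difference -1.25 ± 0.21 (SE), adjusted p = 0.00239). *Rian*, of the same cluster, fell by 0.89, also without overlap. *H19*, the non-coding partner of *Igf2*, fell by 0.86 with -0.26 in the Vangl2 set and -1.60 in the Ror2 set. It was not called without P5 lung 2 (-0.75, adjusted p = 0.0721) or P5 lung 3 (-0.66, adjusted p = 0.0706) of the Ror2 set. *Igf2bp1*, a fetal RNA-binding protein, and *Hmga2*, a chromatin protein of growing tissue, fell with no overlap within either set (log2 difference -1.29, adjusted p = 0.000228 and log2 difference -0.99, adjusted p = 0.00121).

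Glucocorticoid hormone, high at birth, induces a known set of lung genes, and of 24 such genes 5 fell and 1 rose. Of all genes 9.64% fell and 10.5% rose. The other 18 of the list were not called, 14 of the 24 had a higher estimate at P5, and the list median was 0.06. *Hif3a*, a hypoxia-inducible factor also induced by glucocorticoid, was among the 5 genes with the lowest adjusted p, with normalized counts of 360.3, 606 and 838 at P2 and 127, 136 and 202 at P5 in the 5 measured lungs (log2 difference -2.03 ± 0.15 (SE), adjusted p = 7.02e-05). All P5 lungs lay below all P2 lungs. The metallothioneins *Mt1* and *Mt2*, metal-binding proteins whose near-identical reads could be shared by the counting, stood at -1.19 and -1.46 (5 P5 lungs each), and *Fkbp5*, a chaperone of the glucocorticoid receptor, fell by 0.62 (adjusted p = 0.00157). Of 19 circadian clock genes 3 rose and 2 fell, beside 10.5% and 9.64% of all genes, and 1 rose without P5 lung 2 or 3 of the Ror2 set. *Hlf*, an output factor of the clock, rose from 302 to 706 at the median (log2 difference 1.26 ± 0.16 (SE), adjusted p = 0.000581), whereas the clock gene *Per3* fell by 0.45. Hours of collection are not given in the sources used here.

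Other large falls were seen in genes of secretion and metabolism. *Spink5*, an inhibitor of serine proteases in surface epithelia, had normalized counts of 623, 1061 and 1493 at P2 and 8.76, 114 and 712 at P5, overlapping between sets but not within them (log2 difference -3.67 ± 0.90 (SE), adjusted p = 0.0148). *Cst8*, a cystatin, fell by 2.71, *Fam47e* by 1.95, *Gdpd2*, a phosphodiesterase of glycerol lipids, by 1.81 and *Cox6a2*, the muscle form of a cytochrome oxidase subunit, by 1.72, the last 3 over 5 P5 lungs. *Gdpd2* had 299.6, 442 and 647 at P2 and 96.9, 118 and 146 at P5 in the 5 measured lungs, with no overlap (log2 difference -1.81, adjusted p = 7.02e-05). *Gapdh* was listed at medians of 92.8 and 23.7, low for an abundant glycolytic enzyme. Its value (-1.77, 5 P5 lungs) is uncertain, since it has many pseudogenes with which reads could be shared, and was -1.06 without both P5 lungs of the Vangl2 set that stood apart.

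Lymphocyte genes rose in 12 of 29 cases and fell in 0, beside 10.5% and 9.64% of all genes, but at low levels. Median differences were 1.09 in the Vangl2 set and 0.46 in the Ror2 set. Within both sets the P5 lungs lay above the P2 lungs in 1 gene, beside 7.51% of all genes. *Cd3e*, a subunit of the T cell receptor, had normalized counts of 2.98, 9.07 and 48.6 at P2 and 24.7, 47.8 and 51.9 at P5 in the 5 measured lungs, and 1 P2 lung reached the P5 range (log2 difference 1.89 ± 0.52 (SE), adjusted p = 0.0263). Its call was lost without P5 lung 2 of the Ror2 set (adjusted p = 0.0623), P2 lung 1 or 2 (0.0573 and 0.0536) or P5 lung 2 or 3 of the Vangl2 set (0.063 and 0.0519). *Ccr7*, the lymph node homing receptor, rose by 1.75 (adjusted p = 0.0139), and without both P5 lungs of the Vangl2 set that stood apart it was at 1.49 (adjusted p = 0.0532). The count of lymphocyte genes that rose was 5 and 6 without P2 lungs 1 and 2 and 3 and 6 without P5 lungs 2 and 3 of the Ror2 set. It was 3 without P2 lung 1 or 2, 7 without P5 lung 2 and 5 without P5 lung 3 of the Vangl2 set, and 3 without both P5 lungs of that set that stood apart. With the Y-linked level as a covariate limma called 0 of 29 lymphocyte genes higher, with 8 at an unadjusted p under 0.05, and in the Ror2 set alone 0, with 3. In the MHC class II list 4 of 20 rose and 0 fell, beside 10.5% and 9.64% of all genes. Those that rose included *H2-Aa* (log2 difference 0.98, limma adjusted p = 0.00882) and *H2-Eb1* (log2 difference 0.99, adjusted p = 0.0052), members of a gene family whose reads can be shared. With that covariate limma called 0 of the class II list, with 5 higher at an unadjusted p under 0.05.

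Myeloid genes that changed were lower at P5, where of all genes 9.64% fell and 10.5% rose. In the neutrophil list 6 of 20 fell and 0 rose, or 10 without P5 lung 1 of the Vangl2 set and 4 without P5 lung 1 of the Ror2 set. The list median was -0.42 in the Vangl2 set and -1.93 in the Ror2 set. With the Y-linked level as a covariate limma called 1 lower (14 at an unadjusted p under 0.05). In the Vangl2 and Ror2 sets alone it called 0 and 4 (5 and 15 at an unadjusted p under 0.05). *Csf3r*, the receptor for the growth factor of neutrophils, was the firmest, with normalized counts of 469, 601 and 777 at P2 and 192, 245 and 400.2 at P5 and no overlap (log2 difference -1.22 ± 0.17 (SE), adjusted p = 0.00103). *Retnlg*, a resistin-like protein, stood at 178, 223 and 918 at P2 and 77.1, 99.3 and 163 at P5 (log2 difference -1.46, adjusted p = 0.012). The calprotectin gene *S100a8* was not called, with 1 P2 lung at 6334 against a P2 median of 862. The stefin genes *Stfa1* and *Gm5483*, close copies whose reads may be shared, were at -3.44 ± 0.81 (SE) and -1.78 (limma adjusted p = 0.012 and 0.00702). *Stfa1* had normalized counts of 243, 322 and 816 at P2 and 3.70, 5.98 and 123 at P5 in the Vangl2 set. In the Ror2 set it was near the lowest levels, at 1.03, 5.52 and 14.0 at P2 and 0, 0 and 0.973 at P5. It was not tested in the Ror2 set alone.

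In the macrophage list 7 of 31 fell and 0 rose, beside 9.64% and 10.5% of all genes. The macrophage genes that fell were 3 without P5 lung 2 of the Ror2 set and 4 without any 1 of the P2 lungs or P5 lung 2 of the Vangl2 set. *F7*, coagulation factor VII, had normalized counts of 61.0, 77.3 and 95.4 at P2 and 16.7, 32.5 and 51.4 at P5 in the 5 measured lungs (log2 difference -1.34 ± 0.24 (SE), adjusted p = 0.00401). *Ear2*, an eosinophil-associated ribonuclease of alveolar macrophages, was at -1.90 (adjusted p = 0.0307), with -3.14 in the Vangl2 set and -0.67 in the Ror2 set, and at -0.82 without both P5 lungs of the Vangl2 set that stood apart. Its call was lost without P5 lung 2 of the Ror2 set (0.0509), P2 lungs 1, 2 or 3 (0.0683, 0.064 and 0.0641) or P5 lung 2 (0.0612) of the Vangl2 set. *Emr1*, which encodes the macrophage antigen F4/80, was not called (log2 difference -0.29, adjusted p = 0.202). With the Y-linked level as a covariate limma called 0 macrophage genes lower, with 6 at an unadjusted p under 0.05. Mast cell and basophil genes fell in 4 of 16 cases, where 9.64% of all genes did. *Cpa3*, *Cma1* and *Tpsb2*, a carboxypeptidase, a chymase and a tryptase of mast cell granules, fell by 1.09, 1.37 and 1.30 (adjusted p = 0.00963, 0.0144 and 0.00444).

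Interferon response genes fell in 4 of 42 cases and rose in 1, close to the 9.64% of all genes that fell. *Oas2*, an antiviral synthetase whose family members are similar in sequence, was at -1.82 (5 P5 lungs), a call lost without P5 lung 2 of the Ror2 set (-1.64, adjusted p = 0.0519). *Ifi27l1* rose by 0.74 (adjusted p = 0.000803). The list's level was 1.25 in P2 lung 1 of the Vangl2 set, from -0.29 to 0.05 in the other P2 lungs and from -0.26 to 0.07 in the P5 lungs. Fewer fell in some fits without 1 lung, namely 2 without P2 lung 2 or P5 lung 3 of the Ror2 set or P2 lung 2 of the Vangl2 set. The count was 1 without P5 lung 2 of the Ror2 set or P2 lung 1 of the Vangl2 set. Acute phase proteins fell in 5 of 18 cases, with 2 without P5 lung 2 or 3 of the Ror2 set and 3 without P2 lung 1 of the Vangl2 set. With the Y-linked level as a covariate limma called 0 interferon response and 0 acute phase genes lower, with 6 of each at an unadjusted p under 0.05.

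Erythroid genes rose in 3 of 27 cases, near the 10.5% of all genes, and fell in 1. *Car2*, a carbonic anhydrase of red cells and other cells, had normalized counts of 4677, 5751 and 5893 at P2 and 6732, 7372 and 8023 at P5 (log2 difference 0.43 ± 0.07 (SE), adjusted p = 0.00252). In the fit of all 12 lungs no cell cycle gene was called, with 0 of 35 mitosis genes and 0 of 38 DNA replication genes by limma, and medians of 0.08 and -0.08. *Mki67*, the proliferation marker, had 3412, 6956 and 8397 at P2 and 5303, 6358 and 10809.6 at P5 in the 5 measured lungs (log2 difference 0.21 ± 0.23 (SE), adjusted p = 0.562), and P2 and P5 lungs were mixed over the range. At an unadjusted limma p under 0.05 stood 0 of the mitosis and 2 of the replication genes. EdgeR on the reads recovered for 9 lungs called 0 of either list. That fit left out genes on chromosomes 5 to 9, X and Y, *Mki67* among them. At most 26 mitosis and 21 replication genes could thus be called by it. With 1 lung left out 3 replication genes were lower without P2 lung 3 of the Ror2 set and 1 without P2 lung 1 or P5 lung 1 of the Vangl2 set.

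Of 45 ribosomal protein genes 3 fell, a smaller share than the 9.64% of all genes, and 0 rose, with medians of -1.02 in the Vangl2 set and 0.01 in the Ror2 set. P5 lungs 2 and 3 of the Vangl2 set had list levels of -1.33 and -1.16, while the other 10 lungs lay between 0.13 and 0.35. *Rps18* had normalized counts of 5699, 6972 and 8931 at P2 and 1464, 3513 and 6016 at P5 (log2 difference -1.17, adjusted p = 0.0273), with pseudogenes with which reads could be shared, and was -0.54 without these 2 lungs. Its call was lost without P5 lung 3 of the Ror2 set (adjusted p = 0.0524) or P2 lungs 1, 2 or 3 of the Vangl2 set (0.0602, 0.0629 and 0.0535). The count that fell was 1 without P5 lung 3 of either set. For the Vangl2 set it was 0 without any 1 of its P2 lungs and 13 without its P5 lung 1.

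Metabolic and stress lists were called to different extents. By limma 0 of 42 oxidative phosphorylation genes and 0 of 26 immediate early and stress genes were called, with 12 and 4 at an unadjusted limma p under 0.05. EdgeR on the reads recovered for 9 lungs called 0 of either list, but left out genes on chromosomes 5 to 9, X and Y. It could thus call at most 30 and 18 of them. Without P5 lung 2 of the Vangl2 set, however, 4 of the immediate early and stress genes were higher and 1 of the oxidative phosphorylation genes lower, and 1 and 2 without P5 lung 1 of the Ror2 set. Without P5 lung 3 of the Vangl2 set 1 oxidative phosphorylation gene was lower. Of 34 cholesterol and fatty acid synthesis genes 3 rose, near the 10.5% of all genes. Among them *Fads1*, a fatty acid desaturase, rose by 0.44 from 2408 to 3199.6 normalized counts at the median. Of 31 xenobiotic and oxidative enzymes 5 fell and 2 rose, beside 9.64% and 10.5% of all genes. The falls were 3 without P2 lung 3 or P5 lung 2 of the Ror2 set or P5 lung 2 of the Vangl2 set. They were 8 without P5 lung 3 of the Vangl2 set. *Cyp2s1*, a cytochrome P450 of airway epithelium, had 1500.2, 1829 and 2139 at P2 and 691, 807 and 1242 at P5 in the 5 measured lungs (log2 difference -1.11 ± 0.14 (SE), adjusted p = 0.000807), and *Aox3*, an aldehyde oxidase, fell by 0.87. *Sod3*, the extracellular superoxide dismutase, rose from 825 to 1331 (log2 difference 0.79, adjusted p = 0.00125, 5 P5 lungs), with every P5 lung above every P2 lung.

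The same ages were also compared in the 12 mutant lungs, which share no sample with the controls but lie in the same 4 tables, so that a difference between tables would enter both comparisons. There 238 of 16286 genes (1.46%) were called. The count was 75, 841 and 93 without P2 mutants 1, 2 and 3 and 27 and 61 without P5 mutants 2 and 3 of the Ror2 set. It was 107, 107 and 609 without P2 mutants 1, 2 and 3 and 149 without P5 mutant 2 of the Vangl2 set. Of the 73 and 274 genes with the firmest change in controls, 70 and 270 were tested in mutants, and 68 and 242 had the same sign there, beside 63.3% of all 16038 genes tested in both. *Hif3a* was at -2.38 in mutants, *Crabp1* at 2.62 and *Wnt5a* at 0.77. *Pdgfra* stood at -0.08 and *Eln* at -0.35 in mutants, beside 0.82 and 0.91 in controls, and the mitosis list had a median of 1.12 beside 0.08. Medians of the myofibroblast and ciliated lists were 0.22 and -0.28 in mutants. The difference between the genotypes was not tested.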

How the data were processed

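RNA of whole left lobes was sequenced from 24 lungs, of which the 12 controls were used, with the 12 mutants beside them. The deposited tables hold normalized counts per gene, a signal that the authors made by dividing reads by a size factor. The submitters' processing notes name mm10 and DESeq2, and the aligner is not given in the sources used here. The tables' own columns of fold changes, standard errors and p-values were not used. For 21 of the 24 lungs whole reads could be recovered within 0.02 of a whole number by the check applied. Groups came from the titles, since the genotype labels of 2 mutant groups name the other gene. No source says that replicates were separate animals, so p-values measure the spread between these lungs, and intervals of counting are smaller than that spread at 13820885 to 21544225 reads.

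The 12 columns were rescaled together by TMM on genes above 0 in all 12 (factors 0.958 to 1.07). The lung with chromosomes at 0 was set to missing for genes on chromosomes 5 to 9 and X and also, as an addition, on Y and for genes with no placed position. Genes with at least 5 normalized counts in at least 3 lungs were kept, and log2(value + 1) was fitted in limma 3.58.1 (R 4.3.3) with set and age, empirical Bayes with trend and Benjamini-Hochberg adjustment. A call needed an adjusted p under 0.05 and 1 sign in both sets. Tables name genes by symbol, and 4 duplicated date-like names were left out. Single pathway genes had a two-sided exact permutation test within sets. The scripts were tested on simulated data. Alternatives included edgeR 4.0.16 on 9 control lungs, without genes of chromosomes 5 to 9, X and Y, and DESeq2 1.42.0 size factors. Other pseudocounts and filters, a replicate block, the table as a random block and each lung left out in turn were also used. The fit with the Y-linked level as a covariate held 11 lungs, leaving out P5 lung 1 of the Ror2 set. The edgeR fit on recovered reads and the fit without both P5 lungs of the Vangl2 set that stood apart were chosen after seeing the data. Replicate numbers did not pair the lungs (correlations of same-numbered deviations -0.14 to 0.04). No 2 lungs held identical values, and correlations of log2 values within a table were 0.971 to 0.988.

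The lungs, the 39 gene lists and the tests were chosen with earlier results of these data known. Named genes are the 12 largest called increases and decreases with a mean of at least 50 and lungs apart in both sets, called or defining members of lists, 9 pathway genes and the 5 lowest adjusted p-values, some of these left unnamed. *Sox9*-driven mutants are shown for their values alone.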

Additional observations from a re-analysis of the deposited data

Results flagged for a closer look

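Among the 5 or 6 measured lungs of 1 age, 18 of 350 tested sets of values had 1 lung outside Dixon's limit, near the 1 in 20 that chance gives. At P2 a single lung was lowest for *Vangl1* (398 normalized counts), *Aqp3* (65.1) and *Rspo1* (256), and a single lung was highest for *9330159F19Rik* (123), *Foxj1* (3064), *Retnlg* (918), *S100a8* (6334) and *Emr1* (494). At P5 a single lung was lowest for *Acta2* (8469) and *Myh11* (5697) and highest for *Car4* (2204). Among list levels, on the log2 scale around each gene's mean, 1 P2 lung was highest for macrophage (0.72), neutrophil (2.19), interferon (1.25), xenobiotic enzyme (0.65) and acute phase genes (0.96), 1 P5 lung was lowest for oxidative phosphorylation (-0.43) and 1 P5 lung highest for adipocyte genes (5.31). P2 lung 3 of the Ror2 set held the highest value of *Foxj1*, *Retnlg*, *S100a8* and *Emr1* and of the macrophage, neutrophil, xenobiotic enzyme and acute phase lists.

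The age change of *Igf2* differed between the sets by the interaction test (-1.17 on the log2 scale, Ror2 minus Vangl2, limma adjusted p = 0.039), and a difference between tables cannot be told apart from it.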

How the results depend on the processing

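Of the 119 called genes named, 111 kept the call in every fit without 1 lung. With DESeq2 size factors 119 were called, without joint rescaling 118 and with the replicate block 110. The number was 80 with the table as a random block and 75 with the Y-linked level as a covariate (11 lungs). It was 50 in the Vangl2 set alone, 91 of 118 tested in the Ror2 set alone and 0 with 4 table means. The count of all called genes (3256) was 1904 with the replicate block, 714 with the table as a random block, 0 with 4 table means, 820 with the Y-linked level, 382 in the Vangl2 set alone, 1635 in the Ror2 set alone, 586 of 10357 by edgeR on 9 lungs and 2136 to 3459 without 1 lung. Separated genes with a change of at least 1 (347) numbered 184 with the random block, 0 with table means and 223 with the Y-linked level. They numbered 122 and 602 in the Vangl2 and Ror2 sets alone and 635 without both P5 lungs that stood apart. By edgeR they were 214 and without 1 lung 318 to 611. Without chromosomes 5 to 9, X and Y they were 219, with only 10767 genes tested. Genes whose age change differed between sets (1) numbered 2 with pseudocount 5, 22 without joint rescaling and 0 to 1046 without 1 lung. Leaving out those chromosomes gave 0, which leaves out *Igf2* itself, on chromosome 7. In mutants (238) the counts were 807 without joint rescaling, 31 with the replicate block and 27 to 841 without 1 lung.

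Of all called genes 1 changed sign with the Y-linked level and 1 in the Ror2 set alone, and among the genes named the changes of sign were in genes that were not called. *Acta2* was at -0.000672 without joint rescaling, -0.11 in the Vangl2 set alone and from -0.00945 (without P5 lung 1 of that set) to 0.23 with 1 lung left out. *Ror2* was at -0.044 without joint rescaling, -0.055 in the Ror2 set alone, and from -0.013 (without P5 lung 3 of the Ror2 set or P5 lung 1 of the Vangl2 set) to 0.14 with 1 lung left out. *Vangl1* was at -0.20 with the Y-linked level, -0.22 in the Ror2 set alone, and with 1 lung left out from -0.12 (without P2 lung 3 of the Vangl2 set) to 0.18, with -0.056 without P5 lung 2 of that set. *Sftpc* was at 0.042 and *Mki67* at -0.065 in the Ror2 set alone, and *Emr1* at 0.013 and *S100a8* at 0.028 in the Vangl2 set alone. The cause was not tested. The reads recovered allow the count test on 9 of the 12 lungs, and genes near 5 normalized counts are the least precise.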
